A study of Mus musculus with 24 samples.

Results

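The 7 genes described here make, carry and use creatine, the energy buffer of tissues with a high and changing demand for ATP. They were chosen by name and function, with no measured value in the rule, although earlier results of these data were known. They are 7 of the 21364 named genes on the array, and 9 of the 55681 probes report them. Ckm and Ckb encode the cytosolic creatine kinases of muscle and brain type, Ckmt2 and Ckmt1 the mitochondrial creatine kinases of the sarcomeric and the ubiquitous type, Gatm and Gamt the enzymes of creatine synthesis, and Slc6a8 the creatine transporter of the plasma membrane. Ckb and Gamt have 2 probes each and the other 5 genes 1 probe each.

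Creatine kinase moves a phosphate between ATP and creatine, so that phosphocreatine can refill ATP where it is used. The mitochondrial forms sit between the inner and outer membranes, next to the carriers that export ATP, while the muscle form in the cytosol binds in part to the M-line of the sarcomere. Creatine itself arises when GATM joins the amidino group of arginine to glycine and GAMT methylates the product, and cells that make little of it import it from blood through SLC6A8.

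The arrays compared wild-type (WT) male mice with male mice homozygous for a Rap1 knockin allele (Rap1 KI/KI). The allele carries the I312R point change in RAP1, the telomere protein encoded by Terf2ip, in every cell, and the line had been back-crossed to C57BL6 (C57BL/6N in the study's methods). For each of 3 WT and 3 Rap1 KI/KI mice the liver, the brain, the heart and a skeletal muscle were each read on a one-color array, which makes 24 arrays from 6 mice. Mouse 1 of each genotype was aged 5 months and mice 2 and 3 were aged 2 months, and values are given below in the order of mice 1, 2 and 3. The muscle sampled was not named in the labels. A level is a probe's processed signal on the log2 scale after subtraction of the log2 75th percentile over all probes of that array, so 0 stands for that percentile and a difference of 1 for a doubling. Levels of different genes come from different probes and are not compared with each other.

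Between 56.5% and 72.7% of probes were well above background on each array, and no creatine system probe was saturated. Muscle arrays had the lowest 75th percentiles of signal, 471 to 529, against 569 to 1389 in the other tissues. The arrays lay on 3 slides, the first with all 6 liver arrays and 2 brain arrays, the second with 4 brain and 4 heart arrays, and the third with 2 heart arrays and all 6 muscle arrays. RNA of brain and liver was extracted with another kit than RNA of heart and muscle, so kit and tissue cannot be told apart between these pairs. Defining markers were high in the labelled tissue, with a summed linear level of the 6 hepatocyte genes of 1817 to 3506 in liver and 0.336 to 124 elsewhere, of the 8 neuron genes of 373 to 641 in brain and 8.86 to 81.0 elsewhere, of the 7 cardiomyocyte genes of 2344 to 4241 in heart and 0.316 to 928 elsewhere, and of the 9 fast fibre genes of 4522 to 6104 in muscle and 0.868 to 97.0 elsewhere. The glial lists were not particular to brain. The astrocyte sum was 52.2 to 111 in brain and 243 to 399 in liver. The oligodendrocyte sum was 84.3 to 176 in brain and 53.1 to 164 in heart and muscle. The muscle array of mouse KI3 stood apart, with a neuron sum of 81.0 (7 of 8 genes above background) against 14.3 to 21.9 on the other 5 muscle arrays (5 to 8 of 8), and the muscle array of mouse KI1 had a slow fibre sum of 463 against 4.24 to 87.8 on the others and a neutrophil sum of 94.4 against 1.56 to 13.7. Terf2ip differed between KI/KI and WT by 0.12 in liver, -0.02 in brain, -0.41 in heart and -0.28 in muscle on the log2 scale, with adjusted p from 0.663 to 1.00 (limma). Whether its probe reads both alleles alike could not be checked, since the probe sequence was not available.

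The promoter windows of 6 of the 7 genes could be read from RefSeq (GRCm38.p6), each with 250 bases before the annotated start and 50 bases after it. The windows of Ckm and Ckmt2 are shown because both genes were above background on all heart and muscle arrays and on no liver or brain array. Those of Ckb and Ckmt1 are shown because both genes were highest in brain. Capitals mark E-boxes (CANNTG), TATA boxes with the exact letters TATAAA, and MEF2 sites, searched on both strands, and the sequences run 5′ to 3′ on the strand of the gene.
Ckm: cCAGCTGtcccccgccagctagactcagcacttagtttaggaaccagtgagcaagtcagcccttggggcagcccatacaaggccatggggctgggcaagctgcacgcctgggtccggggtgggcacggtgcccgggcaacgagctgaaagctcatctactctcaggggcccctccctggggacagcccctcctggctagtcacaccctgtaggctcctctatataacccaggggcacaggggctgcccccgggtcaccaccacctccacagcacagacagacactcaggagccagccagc
Ckmt2: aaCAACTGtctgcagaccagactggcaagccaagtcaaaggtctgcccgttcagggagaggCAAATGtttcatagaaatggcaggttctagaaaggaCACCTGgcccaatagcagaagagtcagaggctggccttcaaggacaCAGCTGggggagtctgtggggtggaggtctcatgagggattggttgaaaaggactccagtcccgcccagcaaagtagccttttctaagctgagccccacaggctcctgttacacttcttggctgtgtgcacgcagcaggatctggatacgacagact
Ckb: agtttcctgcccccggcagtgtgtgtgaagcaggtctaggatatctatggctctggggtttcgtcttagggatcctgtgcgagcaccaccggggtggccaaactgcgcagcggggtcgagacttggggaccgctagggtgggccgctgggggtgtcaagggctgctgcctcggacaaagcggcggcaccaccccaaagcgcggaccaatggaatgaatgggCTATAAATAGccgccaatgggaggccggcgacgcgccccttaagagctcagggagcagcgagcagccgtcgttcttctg
Ckmt1: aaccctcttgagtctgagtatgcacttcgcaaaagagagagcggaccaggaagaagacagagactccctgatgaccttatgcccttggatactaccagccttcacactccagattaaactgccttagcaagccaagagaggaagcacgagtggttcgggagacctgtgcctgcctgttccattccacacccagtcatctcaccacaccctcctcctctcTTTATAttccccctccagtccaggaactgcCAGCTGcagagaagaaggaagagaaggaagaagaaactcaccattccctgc
The windows are chr7:19410844-19411143 on the plus strand for Ckm, chr13:91876836-91877135 on the minus strand for Ckmt2, chr12:111672289-111672588 on the minus strand for Ckb and chr2:121357526-121357825 on the plus strand for Ckmt1, which has another annotated window further downstream. An E-box was found in 72.3% of the 32851 windows of this length in the table, TATAAA in 13.6% and a MEF2 site in 3.19%. The Ckmt2 window held 4 E-boxes, the Ckm and first Ckmt1 windows 1 each, and the Ckb window none. In Ckb the single MEF2 match and the TATAAA match overlap and lie 29 and 28 bases before the annotated start. The first Ckmt1 window held a TATAAA match on the minus strand 31 bases before the start, and neither Ckm nor Ckmt2 had a TATAAA or MEF2 match in these letters. The extended half-site AAGGTCA, bound by oestrogen-related receptors, occurred in the first Ckmt1 window and in 4.72% of all windows. The Gamt window held 4 GC boxes (GGGCGG), against 1 in the Ckmt2 window and none in the windows of the other 4 genes, and 35.7% of all windows held at least 1.

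The level of each gene in each tissue was the clearest feature of the data. All 7 genes differed between brain and heart and between brain and muscle, 6 between liver and muscle, 5 between liver and brain and between liver and heart, and 4 between heart and muscle (limma on all 24 arrays, adjusted p under 0.05 over 42322 probes). Large shares of all probes differed too, namely 67.6% between brain and heart, 70.1% between brain and muscle, 71.1% between liver and muscle, 79% between liver and brain, 66.7% between liver and heart and 43.4% between heart and muscle. A call between tissues was therefore common on these arrays, and the counts alone do not set the 7 genes apart. As for sizes, the median absolute difference was 3.66 between brain and heart for the 7 genes against 1.00 for all probes, 3.85 against 1.02 between liver and heart, and 1.30 against 0.56 between heart and muscle. It was 3.16 against 1.12 between liver and muscle, 2.64 against 1.08 between brain and muscle, and 2.56 against 1.46 between liver and brain. All probes were not matched to the 7 genes for level. With bulk RNA, fewer cells of a type and less RNA per cell cannot be told apart.

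**Figure D1:**
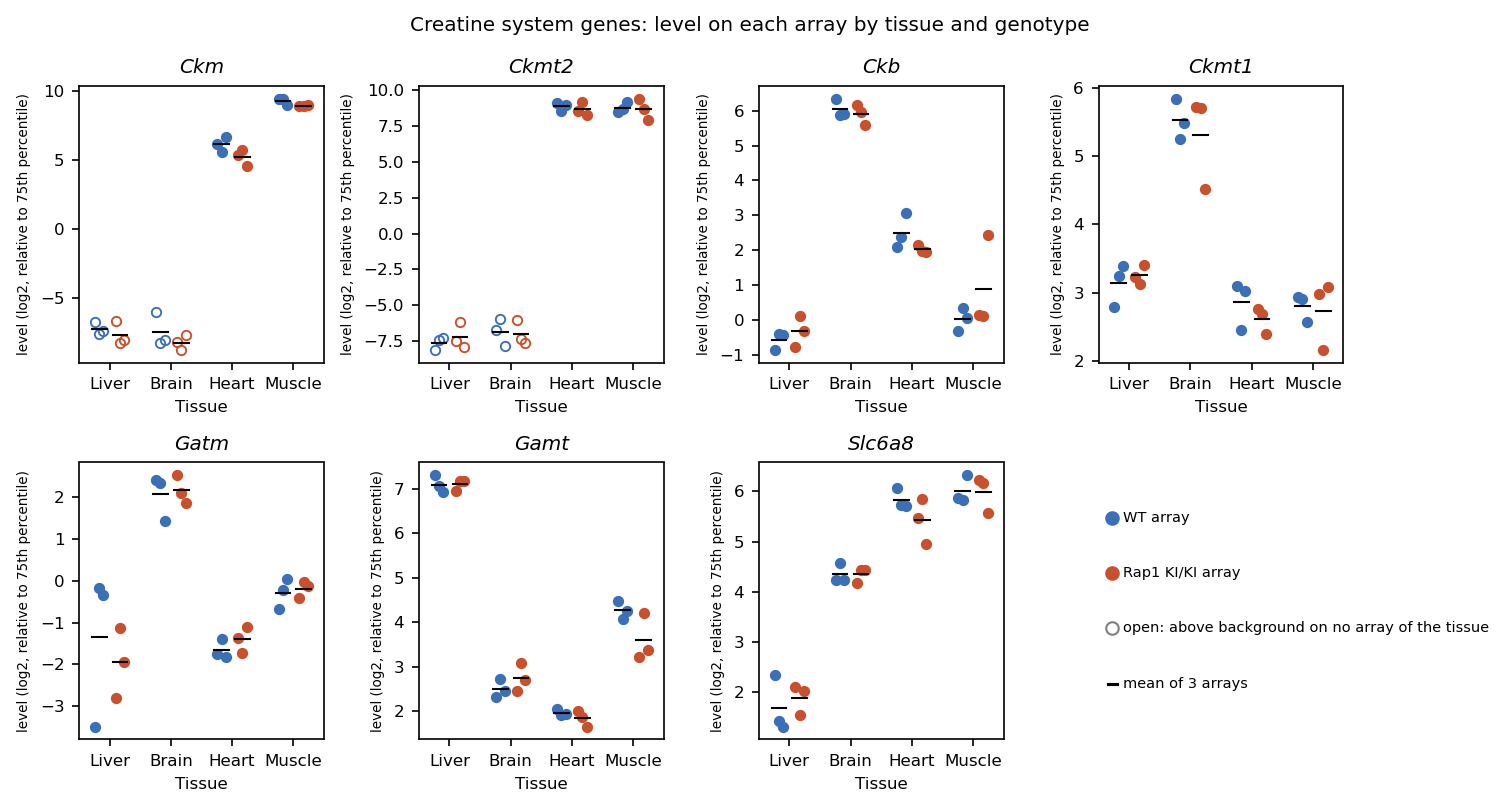
Level of each of the 7 genes (vertical axis, log2 over the array's 75th percentile, a scale of its own in each panel) on each array, by tissue (horizontal axis), with WT in blue, Rap1 KI/KI in orange, and lines for means of 3 arrays. Open circles mark genes above background on no array of the tissue. Ckm and Ckmt2 separate heart and muscle from liver and brain, Ckb and Ckmt1 are highest in brain, and Gamt is highest in liver.

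Ckm, the cytosolic kinase of muscle fibres (chr7:19411094-19421583), was well above background on all 6 heart and all 6 muscle arrays and on no liver or brain array. In muscle it read 9.44, 9.45 and 9.02 in WT and 8.93, 8.91 and 8.996 in KI/KI. In heart it read 6.13, 5.60 and 6.65 in WT and 5.39, 5.70 and 4.55 in KI/KI. The lowest muscle array thus lay above the highest heart array, and the level in muscle was 11.0-fold that in heart (difference 3.45, SE 0.36, adjusted p = 2.0e-07, limma). Against the background limit, where a gene not well above background counts with the higher of its own signal and the dimmest signal called above background, Ckm in heart was at least 2979-fold higher than in liver and at least 3826-fold higher than in brain. In muscle it was at least 32626-fold higher than in liver and at least 41908-fold higher than in brain.

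Ckmt2, the mitochondrial kinase of striated muscle (chr13:91853386-91876923), showed the same split, with all heart and muscle arrays above background and no liver or brain array. Heart arrays read 9.12, 8.60 and 8.98 in WT and 8.56, 9.18 and 8.31 in KI/KI. Muscle arrays read 8.47, 8.69 and 9.20 in WT and 9.43, 8.69 and 7.96 in KI/KI. Heart and muscle overlapped, and their difference of 0.05 (95% interval -0.72 to 0.83, adjusted p = 0.927, limma) was smaller than the SD of either tissue, 0.35 in heart and 0.53 in muscle (n = 6 each). Ckm and Ckmt2, the cytosolic and the mitochondrial partner in the same fibres, therefore parted between heart and muscle, with Ckm higher in muscle and Ckmt2 at a level not told apart. Ckmt2 was at least 25903-fold higher in heart than in liver, and the other limits against liver and brain were 25008-fold to 32044-fold.

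Ckb, the cytosolic kinase of brain (chr12:111669355-111672338), was highest in brain by both probes. Its first probe read 6.35, 5.88 and 5.91 in WT brain and 6.17, 5.98 and 5.59 in KI/KI brain, and 2.09, 2.38 and 3.05 in WT heart and 2.16, 1.97 and 1.94 in KI/KI heart. Muscle gave -0.32, 0.34 and 0.05 in WT and 0.15, 0.12 and 2.44 in KI/KI, and liver -0.86, -0.41 and -0.44 in WT and -0.79, 0.12 and -0.32 in KI/KI. Brain exceeded heart 13.1-fold, muscle 45.8-fold and liver 86.1-fold, with no overlap between arrays (adjusted p = 2.9e-09, 1.0e-11 and 3.7e-13, limma).

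The second Ckb probe kept brain at the top and put heart and muscle in another order. It read 5.76, 5.31 and 5.18 in WT brain and 5.64, 5.44 and 4.65 in KI/KI brain. In heart it read 1.08, 1.16 and 1.45 in WT and 1.06, 0.91 and 0.73 in KI/KI, and in muscle 1.90, 2.01 and 1.06 in WT and 1.13, 1.04 and 2.26 in KI/KI. By the first probe heart was 3.49-fold higher than muscle (difference 1.80, SE 0.31, adjusted p = 1.0e-04). By the second it was lower by 0.50, which missed the threshold (SE 0.26, adjusted p = 0.126), and the mean of both probes gave 0.65 in favor of heart (adjusted p = 0.060). The rank of Ckb in heart and muscle thus depends on the probe, and both probes were annotated with the same RefSeq transcript. Liver was below muscle by 0.91 on the first probe (adjusted p = 0.014) and by 3.04 on the second (adjusted p = 2.7e-09). The first of these values fell to 0.53 without the muscle array of mouse KI3 (adjusted p = 0.029), and missed the threshold without mouse WT2 (adjusted p = 0.057).

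**Figure D2:**
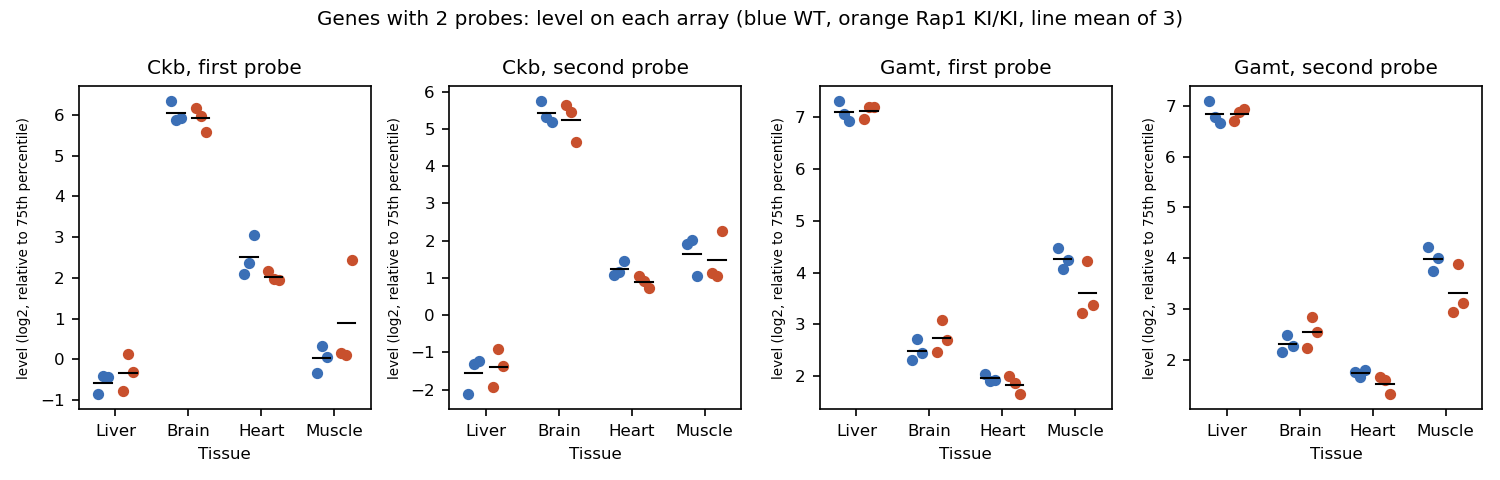
Level of the genes with 2 probes, Ckb and Gamt (vertical axis, log2 relative to the 75th percentile, own scale per panel), on each array by tissue (horizontal axis), with WT in blue, Rap1 KI/KI in orange and means of 3 as lines. The first Ckb probe puts heart above muscle by 1.80 and the second puts it below by 0.50, while the Gamt probes give the same order of tissues.

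Ckmt1, the ubiquitous mitochondrial kinase (chr2:121357773-121363737), was above background on all 24 arrays. Brain read 5.84, 5.26 and 5.48 in WT and 5.71, 5.70 and 4.52 in KI/KI. Every one of these values lay above all values of the other tissues, which spanned 2.16 to 3.41. Brain exceeded liver 4.65-fold, heart 6.40-fold and muscle 6.25-fold (adjusted p = 1.7e-08, 1.7e-09 and 1.9e-09, limma). Liver gave 2.79, 3.25 and 3.40 in WT and 3.23, 3.13 and 3.41 in KI/KI. Heart gave 3.097, 2.45 and 3.03 in WT and 2.76, 2.69 and 2.39 in KI/KI. Muscle gave 2.94, 2.90 and 2.58 in WT and 2.98, 2.16 and 3.08 in KI/KI. These 3 tissues overlapped, and liver was higher than heart by 0.46 (95% interval 0.01 to 0.92, adjusted p = 0.069) and than muscle by 0.43 (95% interval -0.03 to 0.89, adjusted p = 0.086), both short of the threshold. The pair of mitochondrial kinases therefore had different maps, since Ckmt2 was measured only on heart and muscle arrays and Ckmt1 in all 4 tissues.

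The enzymes of creatine synthesis were highest in different tissues. Gatm, whose product starts the pathway (chr2:122594473-122611277), read 2.43, 2.35 and 1.44 in WT brain and 2.53, 2.11 and 1.88 in KI/KI brain. In muscle it read -0.67, -0.21 and 0.04 in WT and -0.40, -0.04 and -0.14 in KI/KI, and in heart -1.76, -1.40 and -1.83 in WT and -1.37, -1.73 and -1.11 in KI/KI. Brain lay above every array of the other tissues, 5.14-fold over muscle, 12.6-fold over heart and 13.6-fold over liver (adjusted p = 6.2e-05, 2.8e-07 and 1.2e-07, limma).

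Liver was the least even tissue for Gatm, with -3.49, -0.18 and -0.34 in WT and -2.80, -1.13 and -1.94 in KI/KI. The SD over the 6 liver arrays was 1.34, against 0.26 to 0.41 in the other tissues. The lowest liver value of each genotype came from its 5-month mouse. The difference of liver from heart missed the threshold (-0.11, 95% interval -1.005 to 0.78, adjusted p = 0.830), and the sign of that difference turned without mouse WT1 (0.40) and without mouse KI1 (0.11). Muscle was higher than liver by 1.41 (adjusted p = 0.006), a difference that missed the threshold with slide as a block (adjusted p = 0.169) and on WT arrays alone, where liver was lower by 1.05 (adjusted p = 0.235). Muscle was higher than heart by 1.30 (adjusted p = 0.019), which missed the threshold on WT arrays alone (adjusted p = 0.185) and without mouse WT3, KI2 or KI3 (adjusted p = 0.059, 0.078 and 0.051).

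Gamt, the methyltransferase that completes creatine (chr10:80258151-80261025), was highest in another tissue, the liver. Liver read 7.31, 7.05 and 6.92 in WT and 6.95, 7.18 and 7.18 in KI/KI. Muscle read 4.48, 4.07 and 4.24 in WT and 3.23, 4.22 and 3.37 in KI/KI, and brain 2.32, 2.72 and 2.46 in WT and 2.46, 3.09 and 2.69 in KI/KI. Heart was lowest, with 2.04, 1.92 and 1.94 in WT and 2.01, 1.87 and 1.66 in KI/KI. The order liver, muscle, brain, heart held with no overlap between any pair of tissues, and each step passed the threshold, at 8.95-fold, 2.48-fold and 1.64-fold (adjusted p = 1.5e-12, 7.2e-07 and 7.6e-04, limma). The second probe gave 9.04-fold, 2.34-fold and 1.73-fold for the same steps.

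Slc6a8, the transporter that brings creatine into cells (X chromosome, chrX:73673133-73682502), was highest in the striated muscles. Muscle read 5.88, 5.84 and 6.33 in WT and 6.23, 6.17 and 5.57 in KI/KI. Heart read 6.07, 5.73 and 5.72 in WT and 5.48, 5.85 and 4.95 in KI/KI. Brain read 4.22, 4.58 and 4.24 in WT and 4.17, 4.43 and 4.43 in KI/KI, and liver 2.34, 1.41 and 1.30 in WT and 2.09, 1.53 and 2.02 in KI/KI. Muscle and heart overlapped and did not differ past the threshold (0.37, 95% interval -0.05 to 0.79, adjusted p = 0.148), while heart exceeded brain 2.44-fold and brain exceeded liver 5.91-fold (adjusted p = 1.2e-05 and 5.2e-10, limma). The tissue with the most Gamt transcript, liver, was thus the tissue with the least Slc6a8 transcript, each relative to the same probe in the other tissues.

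Slides link the tissues in pairs. On the first slide liver (n = 6) was below brain (n = 2) by 6.71 for Ckb and above it by 4.71 for Gamt, against 6.43 and 4.47 over all arrays. Both brains on that slide came from 5-month mice and the livers from both ages, so these values also set ages apart. On the second slide brain (n = 4) was below heart (n = 4) by 1.36 for Slc6a8 and above it by 2.48 for Ckmt1. On the third slide heart (n = 2) was below muscle (n = 6) by 3.52 for Ckm and by 2.14 for Gamt. Slc6a8 was lower in heart than in muscle by 0.67 on that slide and by 0.37 over all arrays. The difference of heart from muscle for Ckmt2 turned its sign, at -0.10 within the slide against 0.05 over all arrays. With the slide as a block, the Gatm differences of muscle from liver and heart and the difference of Ckb between liver and muscle kept their sign and missed the threshold (adjusted p = 0.169, 0.151 and 0.317), and no other difference that had passed was lost. Liver and muscle shared no slide, so their differences in that fit rest on the brain and heart arrays that link the slides.

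Over the 24 arrays Ckm and Ckmt2 followed each other with Pearson r = 0.98, Ckb and Ckmt1 with r = 0.82, and Gamt and Slc6a8 ran opposite with r = -0.78. These are descriptions of 4 tissues more than of 24 independent points. The r of Ckm and Ckmt2 includes all liver and brain arrays, on none of which either gene was above background, so it mostly reflects the split between tissues. Among 18343 other genes, the 3 most like Ckm in level were Xirp2, Tmem182 and Pde4dip (r = 0.99 to 1.00), and the 3 most like Ckmt2 were Yipf7, Hrc and Cox7a1 (r = 0.99 to 1.00). Xirp2 encodes an actin-binding protein of striated muscle, Hrc a calcium-binding protein of the sarcoplasmic reticulum, and Cox7a1 the muscle form of a subunit of cytochrome c oxidase. Ckb was most like Apc2, Tspyl4 and Pea15a (r = 0.99) and Ckmt1 most like Tpgs2, Map9 and Syp (r = 0.97 to 0.98), the last of which encodes the synaptic vesicle protein synaptophysin. Gamt was most like Tst, Mettl26 and Rcl1 (r = 0.98 to 0.99), Slc6a8 most like Rbm24, Slc25a4 and Usp13 (r = 0.99), and Gatm least closely matched, by Kcnj13, Elmo2 and Hira (r = 0.93 to 0.94).

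Genes around the creatine system were read from 5 lists. The first list held 7 genes, namely adenine nucleotide carriers and VDAC pores, which pass ATP and ADP across the mitochondrial membranes, and the phosphate carrier Slc25a3. All 7 were lower in brain than in heart, in the comparison that called 67.6% of all probes in either direction. Their median difference was -1.82 against -0.27 for all probes. Slc25a31 was dim in both tissues, with means of -6.97 in brain and -4.97 in heart, and its arrays overlapped. Slc25a4, the carrier of heart and muscle, was 40.7-fold higher in heart and 60.2-fold higher in muscle than in liver, while Slc25a5, a more widely expressed carrier, was 2.28-fold and 10.3-fold lower. Vdac1, the main pore of the outer membrane, was 3.31-fold higher in heart and 4.67-fold higher in muscle than in liver.

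Of the 9 adenylate kinases, which exchange phosphate between adenine nucleotides, 4 were higher and 4 lower in liver than in muscle, beside 71.1% of all probes called in either direction. Ak1, the cytosolic form of muscle, was 1626-fold higher in muscle than in liver and 2.65-fold higher than in heart. Ak4, a mitochondrial form, was 29.1-fold lower in muscle than in liver. Of the 18 listed genes that make or consume arginine, glycine and methyl groups, all 18 differed between liver and muscle, 11 higher in liver and 7 lower, in the comparison that called 71.1% of all probes. Gnmt, which consumes methyl groups by methylating glycine, was 910-fold higher in liver than in muscle, and Mat1a, which makes the methyl donor in liver, at least 4805-fold higher. Arg1, the arginase of the urea cycle, was at least 5503-fold higher in liver than in muscle. Phgdh, which starts serine synthesis, was highest in brain, 43.2-fold over liver.

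Myom1, a protein of the M-line where muscle creatine kinase binds, was 1263-fold higher in heart and 1988-fold higher in muscle than in liver. The calcium pumps that creatine kinase supplies split the striated tissues, with Atp2a1 33.7-fold higher in muscle than in heart and Atp2a2 78.3-fold higher in heart than in muscle. Of 12 regulators of muscle and mitochondrial transcription, 9 were lower and 2 higher in liver than in heart, beside 66.7% of all probes called in either direction. Ppargc1a, a coactivator of mitochondrial genes, was 9.87-fold higher in heart than in liver and 2.25-fold higher than in muscle. Esrra, an oestrogen-related receptor, was 3.84-fold higher in heart and 3.88-fold higher in muscle than in liver, and Mef2c, a muscle and neuronal transcription factor, was 95.4-fold higher in muscle and 31.8-fold higher in brain than in liver.

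**Figure D3:**
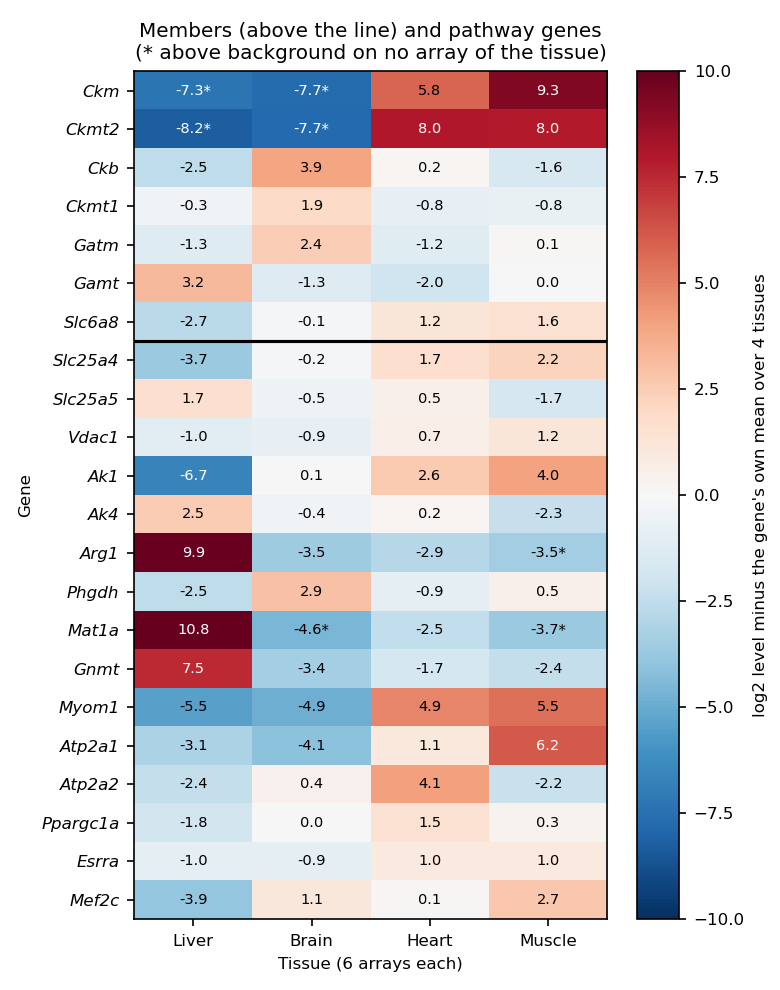
Mean level in each tissue (columns, 6 arrays each) less the gene's own mean over the 4 tissues (log2, color scale and printed values) for the 7 creatine system genes above the line and 15 genes of the surrounding pathways below it. An asterisk marks a gene above background on no array of the tissue. Ckm and Ckmt2 are high in heart and muscle and carry asterisks in liver and brain, where the printed values come from signal not above background. That signal also enters the mean over the 4 tissues of these genes, so their printed values do not give measured differences from liver or brain. Ckmt1 runs from -0.79 to 1.88.

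The study compared Rap1 KI/KI with WT mice within each tissue, and none of the 7 genes passed the threshold in any tissue (limma, adjusted p under 0.05). All 7 could be tested in heart and muscle and 5 in liver and brain, where Ckm and Ckmt2 were not above background. No gene passed an unadjusted p under 0.05 either. Over all probes 0% passed after adjustment in liver, 0% in brain, 0% in heart and 0% in muscle, and 750 of 35213, 989 of 37800, 2616 of 34823 and 799 of 32343 probes had an unadjusted p under 0.05. The test of whether the genotype difference varied among tissues called none of the 7 and 0% of all probes (limma F test), with an adjusted p of 1.00 for Gamt, whose unadjusted value was the lowest of the 7. The intervals leave room for changes of up to several-fold in single genes, so these tests do not show that levels were equal.

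**Figure D4:**
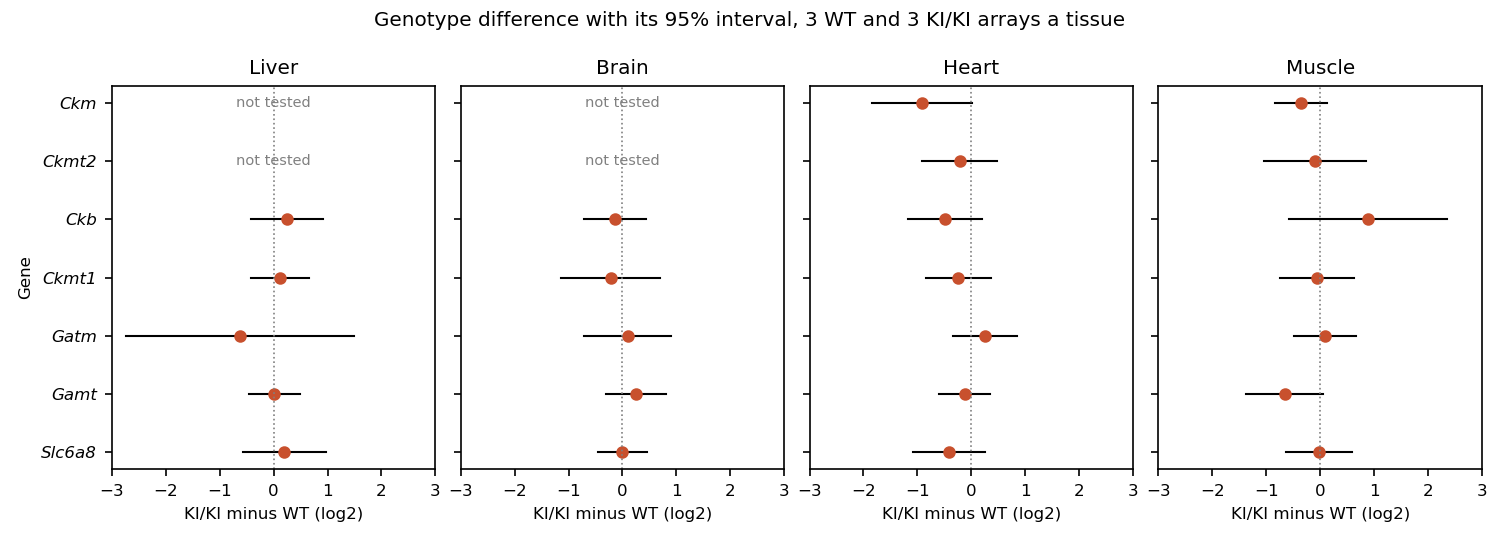
Difference of Rap1 KI/KI from WT (horizontal axis, log2) for each gene (vertical axis) in each tissue, with 3 arrays per genotype. Points are the fitted differences and bars their 95% intervals, and every interval includes 0. The widest interval is that of Gatm in liver, from -2.74 to 1.499.

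In heart 6 of the 7 genes were lower in KI/KI, with a median difference of -0.24 against -0.02 for all probes. Regardless of sign, the median size was 0.255 for the 7 genes and 0.268 for all probes, so their differences were no larger than those of a typical probe. Ckm differed most, by -0.91 (95% interval -1.84 to 0.02, adjusted p = 0.646, limma), and ranged from -1.17 to -0.58 as each mouse was left out in turn. The WT heart with the most Ckm, that of mouse WT3 at 6.65, also had the highest fast fibre sum, 97.0, and the KI/KI heart with the least, that of mouse KI3 at 4.55, had the lowest, 15.0, while the other 4 hearts had sums of 16.6 to 36.2, with 6 to 9 of the 9 genes above background on every heart array. Fast fibre genes are markers of skeletal muscle, and their part in the Ckm difference was not tested. The heart of WT3 also had the highest cardiomyocyte sum, 4241 against 2344 to 3215 on the other hearts. Its slow fibre sum was highest too, 1159 against 633 to 878. The heart of KI3, at 2890 and 678, was lowest for neither list. The cardiomyocyte sum was 2431 to 4241 in WT and 2344 to 3215 in KI/KI hearts, the adipocyte sum 229 to 244 in WT and 283 to 670 in KI/KI, and the smooth muscle sum 108 to 197 and 174 to 413. The red cell sum was 94.985 to 134 in WT and 147 to 189 in KI/KI hearts, and the endothelial sum 34.1 to 46.3 and 22.9 to 35.2. The adipocyte and red cell sums thus did not overlap between genotypes, and such a gap occurred for 14.7% of all single probes in heart. The part of all these markers was likewise not tested.

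The other heart differences were -0.48 for Ckb (adjusted p = 0.674), -0.41 for Slc6a8 (adjusted p = 0.703), -0.24 for Ckmt1, -0.22 for Ckmt2, -0.12 for Gamt and 0.25 for Gatm. The arrays of both genotypes overlapped for the leading probe of all 7 genes. By the second probes of Ckb and Gamt all KI/KI hearts were below all WT hearts (-0.33 and -0.22), and such a gap occurred for 14.7% of all heart probes. No gene of the 5 lists was called between genotypes in any tissue (limma). Of those named by rule, Myom1 was lower in all KI/KI hearts by 0.60, Atp2a1 by 0.70 and Gnmt by 0.70, each with an adjusted p of 0.646 (limma).

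In muscle Ckm was the one gene whose genotypes did not overlap by the leading probe, with all KI/KI arrays (8.91 to 8.996) below all WT arrays (9.02 to 9.45). Its difference was -0.35 (SE 0.20, 95% interval -0.83 to 0.12, adjusted p = 0.939, limma), and 6.45% of all muscle probes separated the genotypes. The red cell sum was 1.88 to 3.1002 in WT and 3.599 to 7.12 in KI/KI muscles, and its part in the Ckm difference was not tested. None of the 7 did so in liver, brain or heart by the leading probe, where 5.85%, 7.74% and 14.7% of probes did. Ak1, the adenylate kinase of the same fibres, was also lower in every KI/KI muscle, by 0.19 (adjusted p = 0.939).

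Gamt in muscle was 0.66 lower in KI/KI by its first probe (95% interval -1.37 to 0.05, adjusted p = 0.939, limma) and 0.67 lower by its second. Mice KI1 and KI3, at 3.23 and 3.37, were below all WT values, and mouse KI2, at 4.22, was among them. The slow fibre sum was 463 and 87.8 in the muscles of KI1 and KI3, against 4.24 in KI2 and 4.73 to 19.6 in WT, and the neutrophil sum was 94.4 in KI1 and 1.56 to 13.7 on the other muscle arrays. The hepatocyte sum was 96.1, 10.7 and 49.8 in WT and 26.4, 124 and 37.6 in KI/KI muscles. The adipocyte sum was 1058, 194 and 576 in WT and 507, 1463 and 516 in KI/KI muscles. Within each genotype both sums put the mice in the order of Gamt. Over all muscle arrays both sums were lowest in WT2, whose Gamt level lay above KI1 and KI3. The part of all these markers in the Gamt difference was not tested. The highest Ckmt2 level in muscle, 9.43, was that of mouse KI1 with the highest slow fibre sum, and the lowest, 7.96, that of mouse KI3.

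Ckb in muscle was 0.88 higher in KI/KI by its first probe (95% interval -0.58 to 2.34, adjusted p = 0.939, limma) and 0.18 lower by its second. The first value rested on mouse KI3 at 2.44, and without that mouse the difference was 0.11. The same array had the neuron sum of 81.0 given above, and the part of brain transcripts in the Ckb value was not tested.

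In liver and brain the 95% interval of every tested genotype difference included 0. In liver they were 0.24 for Ckb, 0.20 for Slc6a8, 0.11 for Ckmt1, 0.01 for Gamt and -0.62 for Gatm, the last with an SE of 0.90 and a range of -1.70 to -0.04 as each mouse was left out. In brain they were 0.25 for Gamt, 0.10 for Gatm, -0.001 for Slc6a8, -0.13 for Ckb and -0.22 for Ckmt1. The brain of mouse KI3 was lowest for Ckmt1 (4.52) and for both Ckb probes, and its neuron sum was also lowest, 373 against 464 to 641 on the other brain arrays. Its macrophage sum was highest, 87.3 against 32.4 to 42.0, and so was its astrocyte sum, 111 against 52.2 to 73.5, by a list whose sum was higher still in liver. The part of these markers in the brain differences was not tested. Without mouse KI3 the Ckmt1 difference in brain turned to 0.18 and that of Ckb to 0.03, with adjusted p of 0.952 and 0.988 (limma).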

How the data were processed

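Total RNA (200 ng) of 4 tissues from 3 WT and 3 Rap1 KI/KI males was labelled with Cy3 and hybridized to 1-color Agilent mouse arrays (24 arrays). The deposited scanner files hold spot intensity, and the authors' Feature Extraction 12.0.3.1 had subtracted background and detrended the processed signal with no scaling between arrays. The series table deposited by the authors holds a z-transformed score for each probe and array, and was used as an alternative only.

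The log2 processed intensity was reduced by the log2 of its 75th percentile on each array, after spots of a probe were averaged and control and outlier spots left out. A gene was represented by its probe of highest mean level. Genotypes were compared within a tissue and tissues in one fit of 8 groups (tissue by genotype), with limma 3.58.1 in R 4.3.3, over probes that the scanner software called above background on 3 or more of the 6 arrays of the tissue (of any tissue in the joint fit), with Benjamini-Hochberg adjustment over all tested probes and a threshold of 0.05. A gene above background on no array of a tissue gave only a lower bound. Marker sums add linear levels (2 to the log2 level) and include spots with an outlier flag. Fits were tested on simulated data with known changes. The simulated noise was normal and independent, and each probe had the same mean and the same pooled spread in every tissue. No slide or mouse effect was simulated, so the shares below hold for that setting and not for a tissue with a wider spread. The genotype fits recovered 40% to 53% of log2 changes of 2 and 87% to 97% of log2 changes of 4, depending on the tissue. The heart against muscle contrast recovered 40% of log2 changes of 1 and 81% of log2 changes of 2. Arrays give no counts, so their number limits the precision.

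The members, gene lists and alternatives were chosen with earlier results of these data known. The genes named were the 7 members, 15 pathway genes listed by name, the 3 genes most like each member, and Terf2ip. The same mice gave all tissues, which is the source of the pairing: deviations from group means in the 36 pairs of tissues of a mouse correlated by -0.32 to 0.38 over 24548 probes (median 0.09, 17 pairs above 0.1). Promoter windows and gene coordinates came from RefSeq (GRCm38.p6). All deposited files were used. Alternatives were quantile scaling, normexp with an offset of 50, the z scores, other filters, other blocks and leaving out each mouse.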

Additional observations from a re-analysis of the deposited data

Results flagged for a closer look

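The Ckb level of the KI/KI muscle of mouse KI3, 2.44 by the first probe, lay far from the other 5 muscle arrays, which read -0.32 to 0.34. It was the only one of 32 sets of 6 arrays of a tissue, over the 9 probes, in which 1 array lay this far off, by a limit that chance passes in about 1 set of 20. The second Ckb probe read 2.26 on that array and 1.04 to 2.01 on the others.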

How the results depend on the processing

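None of the 207 recounts of genes called moved by more than 1.5 times, and every genotype count stayed at 0. Of 396 genotype differences recomputed, 370 kept their sign and their side of the threshold and 26 turned sign. Of 760 tissue differences, 725 kept both, 18 turned sign, 13 lost the threshold and 4 gained it. Each difference that turned had missed the threshold, and the cause was not tested. Under quantile normalization the genotype differences turned to 0.0012 for Slc6a8 in brain, 0.12 for Slc6a8, 0.024 for Ckmt2 and 0.025 for Ckmt1 in muscle, and the tissue differences to 0.048 for Gatm (liver minus heart) and 0.056 for Ckmt1 (heart minus muscle). On the scale of the z scores Gamt in liver turned to -0.02, Slc6a8 in brain to 0.01 and in muscle to 0.0033, and Ckmt2 (heart minus muscle) to -0.0017. With the mean over the probes of a gene Gamt in liver turned to -0.00016. With the slide as a block, Ckmt1 turned to -0.091 (liver minus heart) and -0.15 (liver minus muscle) and Ckmt2 (heart minus muscle) to -0.095. WT arrays alone gave 0.33 for Gatm (liver minus heart) and 0.054 for Ckmt1 (heart minus muscle), and KI/KI arrays alone -0.010 for Ckmt2 (heart minus muscle). Without the muscle array of mouse KI3, Ckmt2 turned to -0.13 and Ckmt1 to 0.050 (heart minus muscle). Over the omissions of each mouse, genotype differences ranged in liver from -0.066 to 0.24 for Ckmt1 and -0.077 to 0.12 for Gamt, in brain from -0.42 to 0.18 for Ckmt1, -0.26 to 0.026 for Ckb, -0.22 to 0.28 for Gatm and -0.062 to 0.11 for Slc6a8, and in muscle from -0.46 to 0.28 for Ckmt2, -0.24 to 0.22 for Ckmt1, -0.10 to 0.25 for Gatm and -0.14 to 0.18 for Slc6a8. Tissue differences ranged from -0.40 to 0.40 for Gatm (liver minus heart), and for heart minus muscle from -0.084 to 0.27 for Ckmt2 and -0.20 to 0.11 for Ckmt1. With the mouse as a replicate block the counts of tissue differences were 5, 5, 6, 7, 7 and 4 of 7 and the interaction count 0, the same as without it, and it changed no call. The Ckb difference of heart from muscle missed the threshold on KI/KI arrays alone (1.12, adjusted p = 0.148), and that of liver from muscle on WT arrays alone (-0.59, adjusted p = 0.111) and on KI/KI arrays alone (-1.23, adjusted p = 0.066). On WT arrays alone Gatm missed it for liver against muscle (adjusted p = 0.235) and heart against muscle (adjusted p = 0.185). Ckmt1 passed it without mouse WT1 for liver against heart (0.61, adjusted p = 0.043), without mouse KI3 for liver against muscle (0.47, adjusted p = 0.046), and with normexp for liver against heart (0.55, adjusted p = 0.025) and muscle (0.49, adjusted p = 0.037). Signal near background limits Ckm and Ckmt2 in liver and brain to bounds, and 3 mice per genotype limit all genotype intervals.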

Other observations

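Gatm in liver is described here by age, a pattern chosen after its values were seen, so that the fit and shares below use the values that picked it. The livers of the 5-month mice read -3.49 (WT) and -2.80 (KI/KI), below all livers of the 2-month mice, which read -1.94 to -0.18. With genotype in the fit the difference, 2 mice against 4, was -2.25 and did not pass the threshold (SE 0.47, adjusted p = 0.199, limma), with 1 of 35213 liver probes passing the threshold. An absolute difference at least as large occurred for 0.764% of liver probes, although the ages did not overlap for 34.5% of them. In the same livers Ckb was lower at 5 months by both probes, by 0.56 and 0.83, and Slc6a8 higher by 0.64, with adjusted p of 0.269, 0.205 and 0.279. All 6 liver arrays lay on 1 slide, and each age of a genotype rests on 1 or 2 mice. The age difference of Gatm was -0.45 in muscle, where the ages did not overlap, -0.05 in heart and 0.54 in brain, with adjusted p of 0.788, 0.978 and 0.745 (limma). In brain the ages did not overlap either, 2.43 and 2.53 at 5 months against 1.44 to 2.35 at 2 months, a gap found for 14.6% of brain probes and 18.7% of muscle probes. Both 5-month brains lay on a slide of their own among brain arrays, so that age and slide cannot be told apart.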
